A study of Chlorocebus aethiops vervet with 14 samples.

Results

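The genes described here are those of the ubiquitin-proteasome route whose symbols mark them as proteasome components (PSMA to PSMG), ubiquitin-conjugating enzymes (UBE2) or ubiquitin-specific proteases (USP). They were taken from the probe sets of the Rhesus Macaque Genome Array that carry 1 gene symbol in the platform annotation, with the brightest probe set, by mean log2 signal over the 12 rhesus arrays, standing for each gene. This gave 93 genes on 209 probe sets, of 14132 named genes: 33 proteasome symbols, 24 UBE2 genes and 36 USP genes. After the filter on low signal 83 were tested, 32, 20 and 31 in the 3 families. Among the symbols, PSMC3IP encodes a recombination factor that is no proteasome subunit, and USP6NL-AS1 is an antisense RNA. Both were matched by their letters only, and USP6NL-AS1 was too dim to test.

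The RNA came from the lateral geniculate nucleus, the visual relay of the thalamus, of normal adult male vervet monkeys (Chlorocebus aethiops). Laser capture under a cresyl violet stain gave single nerve cell bodies picked from the magnocellular or the parvocellular part (M neurons and P neurons), and heterogeneous tissue cut from either part (M layers and P layers). Each of the 4 groups held 3 animals and 3 arrays, and no animal was treated. The labels do not tie an animal to more than 1 group. Each sample was pooled from roughly 3000 laser pulses and amplified through repeated rounds, and vervet RNA was read by probes designed on rhesus sequence.

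Ubiquitin is activated by an E1 enzyme, passed to an E2 of the UBE2 family and joined to a target protein with the help of an E3 ligase. Chains of ubiquitin send many proteins to the proteasome, a barrel of alpha and beta rings that cuts them up, capped by a regulatory particle with ATPase and non-ATPase subunits that unfolds them. Ubiquitin-specific proteases cut ubiquitin off again. In neurons the route turns over synaptic and misfolded proteins, and damaged proteins build up when it fails.

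All values below are array signals on a linear scale, and all differences are on the scale of log2(signal + 16), which understates the change of dim genes. Group means carry the standard deviation (SD) of 3 arrays. Differences carry the standard error (SE) of a limma model over all 12 rhesus arrays, and a gene is called at a Benjamini-Hochberg adjusted p under 0.05 over all 26383 probe sets tested. The median signal of an array lay between 11.9 and 14.8. Levels of different genes are not comparable, because each probe set binds vervet RNA with its own strength. In these captures fewer cells of a type and less RNA per cell cannot be told apart. Instrument records put the M neurons and P neurons 1 on fluidics station 3, P neurons 2 and 3 with M layers 1 and 2 on station 4, and M layers 3 with the P layers on station 5, so capture and station overlap in large part. The neuron captures held less astrocyte RNA: 4 of 5 astrocyte markers were called lower in neurons than in layers, led by the glutamate transporter SLC1A3 (-1.09), and the summed signal of the 5 ran from 2031 to 3805 in M neurons and 2369 to 2430 in P neurons, against 5105 to 6040 in M layers and 3694 to 4359 in P layers. Of 5 neuronal markers, 2 were called higher in neurons (ENO2 at 0.91 and STMN2 at 0.32) and 3 were not called. Differences were positive for 3 of the 5 and negative for 2, the lowest at -0.11. The summed signal of the 5 overlapped between captures. It ran from 24374 to 26716 and 21710 to 24602 in M and P neurons, against 20714 to 24634 and 19426 to 23155 in M and P layers. Markers of 3 other cell types were called lower in neurons in part: 1 of 3 for oligodendrocytes (UGT8 at -0.97), 2 of 8 for microglia (P2RY12 at -0.83 and PTPRC at -0.60) and 2 of 4 for endothelium (VWF at -0.92 and PECAM1 at -0.60), with 0 called higher. Positive differences without a call were seen in 1 oligodendrocyte (0.02), 3 microglial (up to 0.29) and 1 endothelial marker (0.26). The summed microglial signal ran from 171 to 259 in M neurons and 212 to 227 in P neurons, against 317 to 363 in M layers and 271 to 303 in P layers, and the endothelial sum from 99.3 to 162 and 132 to 163, against 171 to 230 and 191 to 216. The oligodendrocyte sums overlapped, at 8973 to 11590 in M neurons and 10090 to 10802 in P neurons, against 10940 to 12011 in M layers and 10988 to 12149 in P layers. The part of these marker shifts in the results on capture was not tested.

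Taken as a family, the proteasome genes stood higher in neurons than in layers. The mean log2 level of the 32 tested proteasome symbols, minus the mean of all 10030 tested named genes of the same array, lay between 1.89 and 2.03 in M neurons, 1.82 and 1.88 in P neurons, 1.49 and 1.59 in M layers, and 1.37 and 1.38 in P layers. All neuron arrays lay above all layer arrays. Without PSMC3IP the values were 1.81 to 1.98 in M neurons and 1.75 to 1.82 in P neurons, which overlapped, and 1.43 to 1.53 in M layers and 1.30 to 1.31 in P layers, which did not. The same measure for the UBE2 genes was 1.74 to 1.76 in M neurons, 1.73 to 1.78 in P neurons, 1.65 to 1.78 in M layers and 1.61 to 1.65 in P layers. The first 3 of these groups overlapped. P layers were lowest, but P layers 2 (1.6475) all but met M layers 1 (1.6477). For the USP genes it was 0.24 to 0.30 in M neurons, 0.36 to 0.48 in P neurons, 0.25 to 0.30 in M layers and 0.32 to 0.37 in P layers, lower in M than in P in both captures. Without USP14, described below, the USP values were 0.30 to 0.38 in M neurons and 0.40 to 0.45 in P neurons, which did not overlap, and 0.26 to 0.33 in M layers and 0.29 to 0.34 in P layers, which did.

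**Figure D1:**
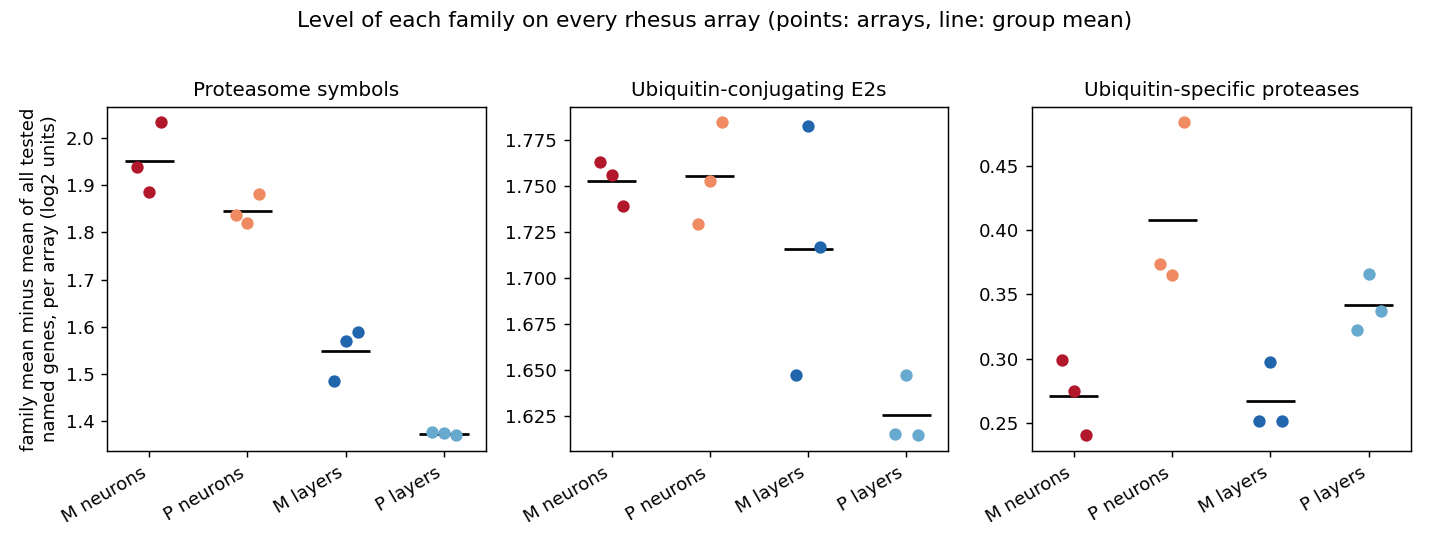
Mean log2 level of each family minus the mean of all tested named genes of the same array (vertical axis, log2 units, each panel on its own range) for the 12 rhesus arrays in 4 groups; points are arrays and lines group means. Proteasome symbols sit between 1.82 and 2.03 in neurons, above 1.37 to 1.59 in layers.

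Between captured neurons and whole layers, most proteasome genes were higher in neurons, by a median of 0.72 over the 32 tested against 0.13 over all tested probe sets. Over both layer types 25 of the 32 were called higher in neurons, 1 was called lower and 6 were not called. Over all tested probe sets the called share was 19.5% for higher and 4.59% for lower. Brighter genes were called more often, with a share higher of 24.2% of named genes and 40.4% of the 2508 brightest named genes, whose median difference was 0.27. All 6 neuron arrays lay above all 6 layer arrays for 23 proteasome symbols, against 8.6% of all probe sets. Of the UBE2 genes 8 of 20 were called higher and 0 lower (median 0.23), and of the USP genes 10 of 31 higher and 1 lower (median 0.26). At an unadjusted p under 0.05 the UBE2 genes had 9 of 20 higher and 1 lower, where all probe sets had 28% higher and 7.24% lower and the brightest named genes 50.4% higher.

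These counts lean on the scale of the arrays, which is not known. With quantile normalization the median over all probe sets moved to 0.01, and 22 proteasome symbols were called higher and 1 lower, 4 UBE2 genes higher and 5 lower, and 4 USP genes higher and 5 lower. With every array scaled to one trimmed mean that median was -0.05, and the counts were 23 and 2, 2 and 4, and 3 and 4. Set against the median of all probe sets, the proteasome median lay 0.59, 0.46 and 0.53 higher under the deposited, quantile and trimmed-mean scales, the UBE2 median 0.09, -0.06 and 0.03, and the USP median 0.12, 0.06 and 0.07. The proteasome median thus kept most of its distance from the bulk of the array under all 3 scales, the USP median stayed close to it, and the UBE2 median changed side. With station as a block the SE grew to 2.11 to 2.52 times the unblocked one for the proteasome symbols, and 7 of the 45 called members were called, all proteasome symbols. On station 4 alone, where P neurons 2 and 3 can be set against M layers 1 and 2 without a test, 29 of 32 proteasome symbols were higher in the neurons, with a median of 0.68 against 0.18 over all probe sets.

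The beta ring holds the cutting sites of the proteasome. All 5 tested standard beta subunits (PSMB1, PSMB2, PSMB5, PSMB6 and PSMB7) were called higher in neurons, by 0.78 to 1.13. PSMB1, a structural subunit of that ring, had signals of 1223, 1234 and 1529.5 in M neurons and 1204, 1356.5 and 1211 in P neurons, against 614, 787 and 656 in M layers and 517, 588 and 478 in P layers. The lowest neuron array stood well above the highest layer array. The difference was 1.08 ± 0.11 (SE), a 2.12-fold higher signal (limma adjusted p = 2.4e-06). A dimmer second probe set of PSMB1, with a mean signal of 24.7, stood at -0.14 and was not called.

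PSMB7, which carries a trypsin-like cutting site, had 1024, 756 and 1379 in M neurons and 896, 945 and 955 in P neurons, against 481, 510.2 and 633 in M layers and 374, 384 and 313 in P layers. Neuron and layer arrays were again apart, and the P layers were lower than every M layer. The difference between neurons and layers was 1.13 ± 0.14 (adjusted p = 1.2e-05, limma). PSMB5, the chymotrypsin-like subunit and the target of bortezomib, had 1694.5, 1451 and 2469 in M neurons and 1403, 1485 and 1717 in P neurons, against 771, 983 and 1363 in M layers and 777, 769 and 710.2 in P layers. M layers 3 came close to P neurons 1 in that gene, without overlap, and the difference was 0.93 ± 0.14 (adjusted p = 0.0001, limma).

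**Figure D2:**
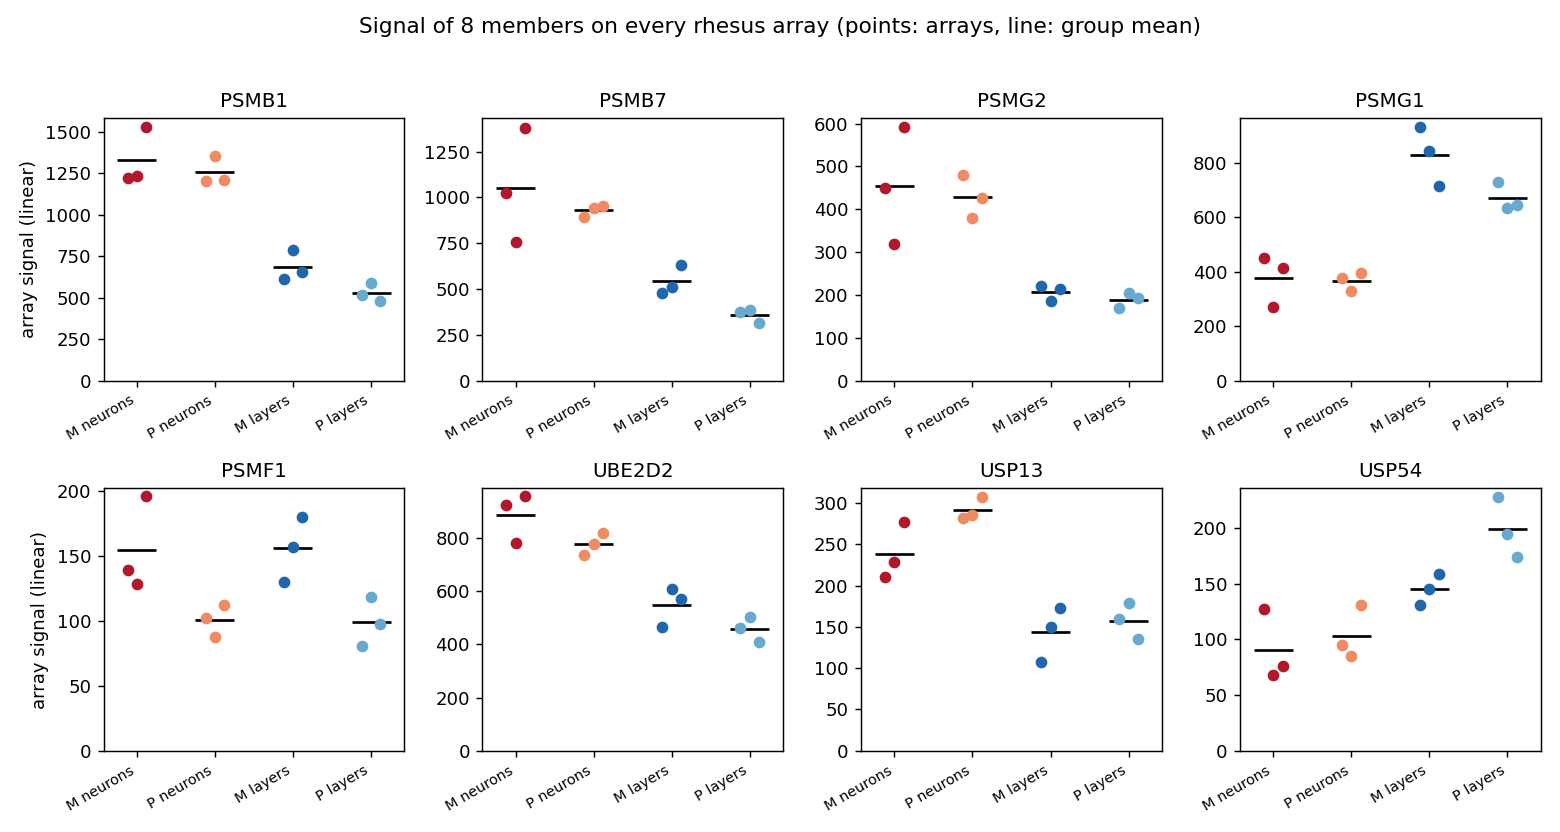
Linear array signal (vertical axis, from 0) of 8 members on the 12 rhesus arrays in 4 groups; points are arrays and lines group means. PSMB1, PSMB7, PSMG2, UBE2D2 and USP13 are higher in neurons, PSMG1 and USP54 lower, and PSMF1 runs from 129 to 197 in M arrays against 80.5 to 119 in P arrays.

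The alpha ring, the gate of the barrel, was called higher in 3 of its 4 tested members, PSMA1 (0.60), PSMA2 (0.76) and PSMA3 (0.75). PSMA2 had 5 tested probe sets, of which the 2 brightest were called higher and the 3 dimmer ones stood between -0.27 and -0.04 without a call. The exception was PSMA7, the brightest gene of the family, with 5724 ± 444 (SD, n = 3) in M neurons and 5419.9 ± 672 in P neurons, against 5536 ± 661 in M layers and 5343 ± 425 in P layers. Its difference was 0.03 ± 0.09 (adjusted p = 0.82, limma), with a 95% interval from -0.14 to 0.21, and it was called lower in neurons, at -0.23, when the arrays were scaled to one trimmed mean. For scale, the brightest probe set of an array reached 10369 to 12183.

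The immune forms of the beta subunits, which interferon brings in for antigen presentation, were read in part. PSMB10 was called higher in neurons (0.52 ± 0.13, adjusted p = 0.0058, limma), with arrays that overlapped, and was not called with quantile normalization (0.23, adjusted p = 0.13) or trimmed-mean scaling (0.27, adjusted p = 0.074). PSMB8 was dim, at 28.0 ± 8.76 in M neurons and 22.95 ± 3.41 in P neurons, against 29.8 ± 7.62 in M layers and 20.3 ± 5.88 in P layers, and its difference was 0.02 ± 0.15. PSMB11, the beta subunit known from thymus, averaged 6.85 and was not tested. PSMB9 was not analysed here on the rhesus arrays.

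In the regulatory particle all 5 tested ATPases that unfold the substrate (PSMC2 to PSMC6) were called higher in neurons, by 0.66 to 0.88. PSMC1 was not analysed here on the rhesus arrays. All 7 tested non-ATPases of the PSMD series that stay in the particle (PSMD1, PSMD2, PSMD6, PSMD7, PSMD8, PSMD11 and PSMD13) were called higher too, by 0.39 to 1.03. The calls of PSMD13 (0.11 and 0.14) were lost with quantile and trimmed-mean scaling, and that of PSMD1 (0.23) with quantile normalization. In all 12 genes the neuron arrays lay above the layer arrays. PSMC5 had group means of 1984 ± 390.5 (SD, n = 3) in M neurons and 1775 ± 158 in P neurons, against 1109 ± 206 in M layers and 923 ± 41.1 in P layers. PSMD2, a large scaffold subunit that receives ubiquitin-like domains, had 802 ± 254 in M neurons and 696 ± 115 in P neurons, against 376 ± 66.8 in M layers and 332 ± 10.96 in P layers, a difference of 1.03 ± 0.15 (adjusted p = 5.6e-05, limma).

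The assembly chaperones, which help build the particle and leave it afterwards, did not move as one. PSMG1 and PSMG2 form a pair that seats the alpha ring. PSMG2 had 449, 319 and 591 in M neurons and 479, 379 and 427 in P neurons, against 221, 187 and 213 in M layers and 169.7, 204 and 192 in P layers. Its difference was 1.08 ± 0.14 (adjusted p = 2.9e-05, limma), and the arrays were apart.

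PSMG1 went the other way, with 448, 272 and 414 in M neurons and 376, 330.2 and 394 in P neurons, against 930.2, 843 and 714 in M layers and 728, 634 and 646 in P layers. Every layer array lay above every neuron array, and the difference was -0.98 ± 0.13 (adjusted p = 3.2e-05, limma), a 1.98-fold lower signal in neurons. It was called in M (-1.12) and in P (-0.84). With station as a block it was called over both layer types (-1.22, adjusted p = 0.046) but not in M (-1.28, adjusted p = 0.13) or in P (-1.17, adjusted p = 0.15). A second PSMG1 probe set, with a mean signal of 211, stood at 0.36 (adjusted p = 0.13, limma), so the fall was seen on 1 of 2 probe sets. The mean of the pair of PSMG1 probe sets was not called over both layer types (-0.31, adjusted p = 0.10), in M (-0.36, adjusted p = 0.25) or in P (-0.26, adjusted p = 0.43). Of the other chaperones PSMG3 (1.08) and PSMG4 (0.61) were called higher, and PSMD9 stood at 0.41 (adjusted p = 0.054, limma). A dim second probe set of PSMG4 stood at -0.20, and averaging probe sets ended the calls of PSMG4 (0.20) and, in the alpha ring, of PSMA2 (0.13).

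Regulators that open or hold the barrel gave 0 calls of 3 at this threshold in limma, and 1 of the 3 had an unadjusted p under 0.05. The activator PSME3 stood at 0.37 (adjusted p = 0.063), PSME2, part of the interferon-induced activator, at -0.06, and PSMF1, an inhibitor of the core, at 0.00. PSMC3IP, the recombination factor, was called at 0.75, and all 8 of its tested probe sets were positive, 6 of them with an adjusted p under 0.05. Without PSMC3IP the proteasome count is 24 higher and 1 lower of 31, with a median of 0.70.

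**Figure D3:**
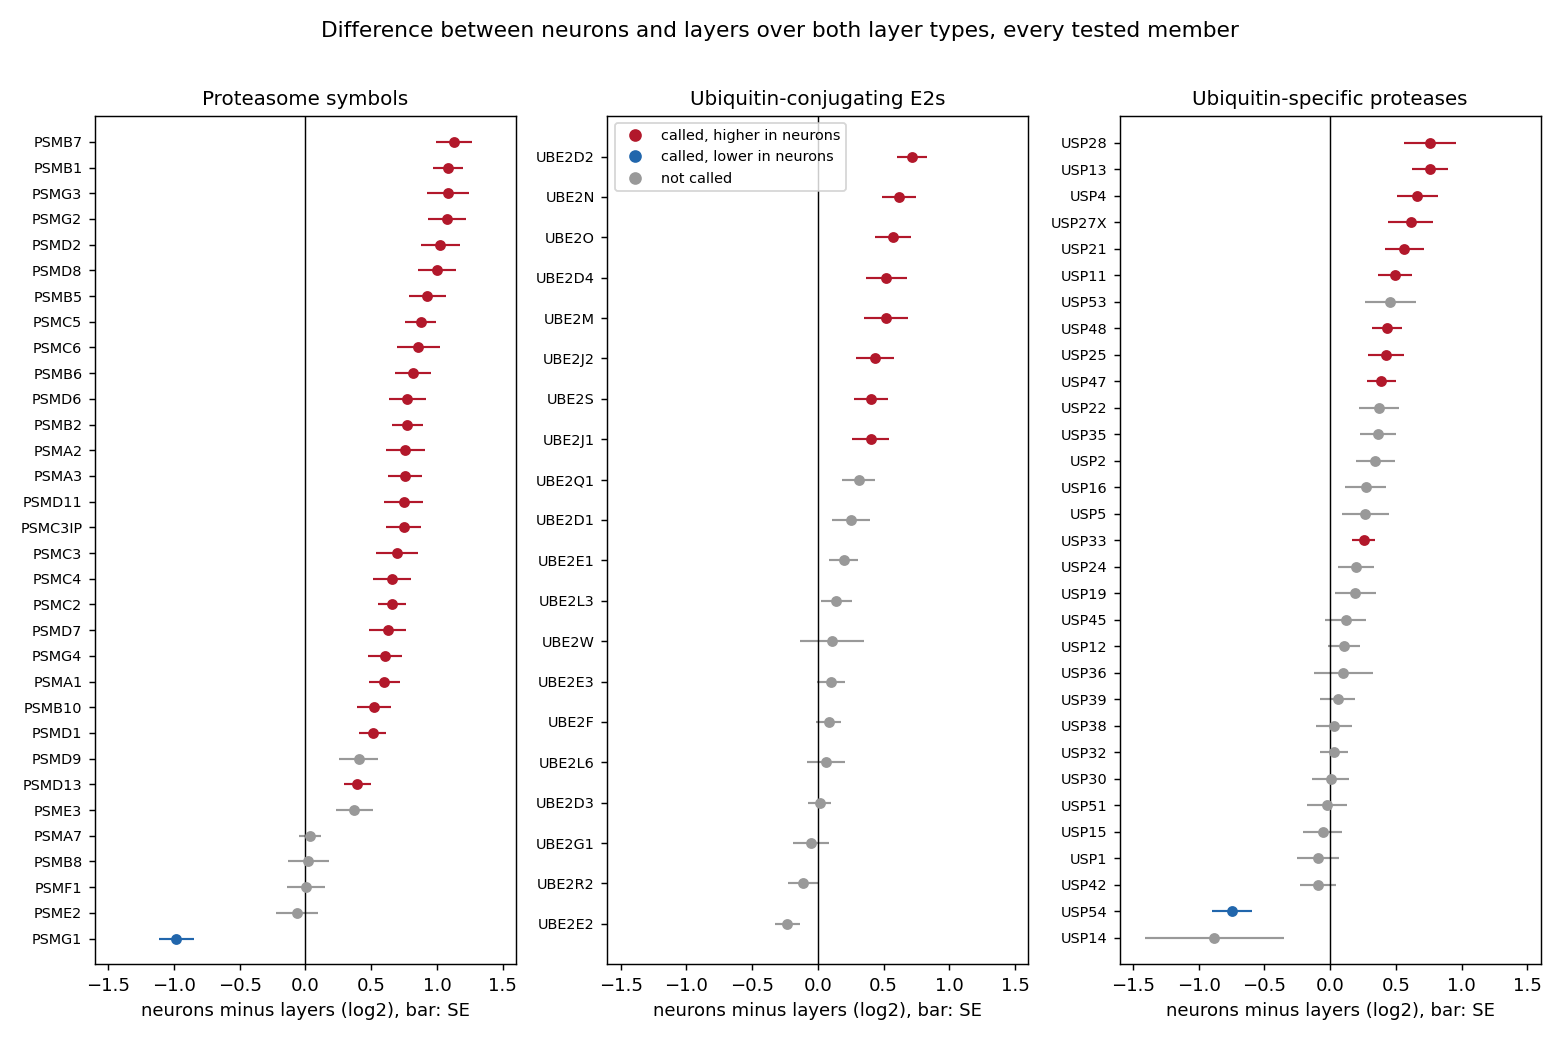
Neurons minus layers over both layer types (horizontal axis, log2 units, bars are SE) for the 83 tested members in 3 panels, each ordered by its difference, coloured by call at an adjusted p under 0.05. In the proteasome panel 25 of 32 genes are called to the right of 0 and PSMG1 is the one called to the left, at -0.98.

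The differences in M and in P came from separate arrays but from 1 model. That model gave each probe set 1 estimate of spread, so the calls in M and in P were not independent. In M, 19 proteasome symbols were called higher in neurons and 1 lower (median 0.65), beside 1 UBE2 gene and 2 USP genes higher, where the whole table had 7.82% higher and 2.86% lower. In P, 20 proteasome symbols were called higher and 1 lower (median 0.74), beside 2 UBE2 genes higher, 2 USP genes higher and 1 lower, where the whole table had 8.76% higher and 1.41% lower. These counts turned with the scale too. Under quantile normalization proteasome, UBE2 and USP calls higher and lower were 13 and 1, 1 and 1, and 1 and 4 in M. In P they were 14 and 1, 2 and 1, and 1 and 1. With trimmed-mean scaling they were 13 and 1, 1 and 1, and 2 and 2 in M. In P that scaling gave 15 and 2, 2 and 0, and 1 and 1. On the deposited scale the proteasome calls overlapped in 18 genes, 90% of those called in M and 85.7% of those called in P. The same share was not counted over all probe sets, so the overlap cannot be read as particular to the proteasome. In M the 23 calls over the 3 families fell to 9 without M layers 1 and to 12 without M neurons 3, and in P the 26 fell to 15 without P layers 1 and to 16 without P layers 3. With station as a block they were 0 in M and 2 in P, where all probe sets fell to 0.136% and 0.425% called. The interaction of layer type with capture was called for 0 members, as for 0% of all probe sets, and 1 of 83 members, USP12 (-0.53), had an unadjusted p under 0.05, against 2.81% of all probe sets. Next to it in size of p were PSMB7 (-0.44), USP4 (0.50), PSMA2 (-0.48) and UBE2L6 (-0.45), where a negative value means a smaller difference between neurons and layers in M than in P.

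Among the conjugating enzymes, UBE2D2, one of the E2s that serve a wide range of E3 ligases, was furthest from 0. It had 923, 779.7 and 958 in M neurons and 737, 778 and 819.6 in P neurons, against 463, 608 and 571 in M layers and 463, 504 and 408 in P layers. Neuron and layer arrays did not overlap. The difference was 0.72 ± 0.12 (adjusted p = 0.00018, limma). Its near relatives were spread: UBE2D4 was called at 0.52 (0.27 and 0.29 without a call under quantile and trimmed-mean scaling), UBE2D1 stood at 0.25 and UBE2D3 at 0.01, and the UBE2E genes lay between -0.23 and 0.20 without a call. The lowest of these, UBE2E2, was called lower in neurons under quantile normalization (-0.49, adjusted p = 0.0017, limma) and also under trimmed-mean scaling. UBE2D3 was the brightest UBE2 gene, at 4122 ± 147 in M neurons and 4029 ± 201 in P neurons, against 4334 ± 509.9 in M layers and 3805 ± 603 in P layers.

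UBE2N, which builds signalling chains together with a catalytically dead partner, was called at 0.62 ± 0.13 (adjusted p = 0.0015, limma). Its 3 probe sets were not alike, at 0.62, -0.02 and 0.91. UBE2O, an enzyme that joins E2 and E3 activity, was called at 0.57 with arrays apart, and not with trimmed-mean scaling (0.36, adjusted p = 0.061). UBE2J1 (0.40) and UBE2J2 (0.44), which sit in the membrane of the endoplasmic reticulum, were called, as was UBE2S (0.41), which extends chains for the anaphase-promoting complex. These 3 calls were lost with quantile normalization (UBE2J1 at 0.14, UBE2J2 at 0.35 and UBE2S at 0.12) and with trimmed-mean scaling (0.16, 0.26 and 0.15). Without the signal filter UBE2J1 (adjusted p = 0.070) and UBE2J2 (adjusted p = 0.084) were not called either. Of the E2s for ubiquitin-like proteins, UBE2M, which carries NEDD8, was called at 0.52 on a dim signal of 30.8 ± 12.7 in M neurons and 17.3 ± 1.97 in P neurons, against 14.1 ± 2.02 in M layers and 8.94 ± 4.96 in P layers. The call of UBE2M was lost without the signal filter (adjusted p = 0.075) and with trimmed-mean scaling (0.38). UBE2F, which also carries NEDD8, stood at 0.08 and UBE2L6, which carries ISG15, at 0.07. UBE2L3, a partner of parkin, stood at 0.14. The direction of UBE2D3 and UBE2F turned with the scale of the arrays: under quantile normalization they were called lower in neurons at -0.16 and -0.16, and with trimmed-mean scaling at -0.25 and -0.18. UBE2G2, UBE2K, UBE2T and UBE2U were too dim to test on the rhesus arrays.

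Among the deubiquitinases, USP13, an enzyme related to USP5, was called higher in neurons in M and in P. It had 210.1, 228 and 277 in M neurons and 282, 286 and 308 in P neurons, against 108, 150.2 and 173 in M layers and 159, 179 and 135 in P layers. The arrays of the 2 captures were apart, and M neurons lay below P neurons. The difference between captures was 0.76 ± 0.14 (adjusted p = 0.00051, limma). USP5, which takes apart free ubiquitin chains, stood at 0.27 without a call.

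Also called higher in neurons over both layer types were USP28 (0.76), USP4 (0.66), USP27X (0.61), USP21 (0.57), USP11 (0.50), USP48 (0.43), USP25 (0.43), USP47 (0.39) and USP33 (0.26). Averaging the probe sets of a gene ended 5 of these calls, those of USP21 (0.36, adjusted p = 0.076), USP25 (0.19, adjusted p = 0.31), USP28 (0.36, adjusted p = 0.11), USP47 (0.29, adjusted p = 0.092) and USP48 (0.24, adjusted p = 0.18). With quantile normalization USP4, USP11, USP25, USP33, USP47 and USP48 were not called. With trimmed-mean scaling the same 6 and USP21 were not. USP28 was dim, between 1.96 and 40.9, and its second probe set stood at -0.05. USP33 was the brightest of the family, with 2609 ± 191 in M neurons and 2614 ± 153 in P neurons, against 2254 ± 153 in M layers and 2119 ± 154 in P layers. Its arrays were apart under the deposited scale, and with trimmed-mean scaling its difference was -0.01. The call of USP33 was also lost without the signal filter (adjusted p = 0.104, limma). USP54 was the one lower call, with 127, 68.4 and 75.9 in M neurons and 94.96, 84.8 and 131.0 in P neurons, against 131.2, 145 and 159 in M layers and 228, 195 and 175 in P layers. The highest neuron array reached the lowest layer array to within a fraction of a unit, and the difference was -0.75 ± 0.15 (adjusted p = 0.0015, limma). The other 20 tested USP genes were not called, and USP20, USP26, USP29 and USP49 were too dim to test.

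Genes that act beside the 3 families in the same route were counted over the same 12 arrays, on the deposited scale only. There 19.5% of all probe sets were called higher in neurons and 4.59% lower. Proteins that bind or steer the proteasome outside the symbol pattern were called higher in neurons in 5 of 7 cases, ECPAS (1.00), AKIRIN2 (0.83), ADRM1 (0.65), UBLCP1 (0.47) and NFE2L1 (0.43), with a median of 0.47. AKIRIN2 guides proteasomes into the nucleus, and NFE2L1 is the transcription factor that raises proteasome genes when the proteasome is blocked. SEM1, a small subunit of the regulatory particle, stood at -0.02. Of 6 E1 enzymes UBA1, the main ubiquitin-activating enzyme, was called (0.96), and of 4 tested ubiquitin-like modifiers SUMO2 (1.03) and FAU (0.68) were. Of 6 shuttles and segregase partners NSFL1C was called (0.59). Of 20 deubiquitinases outside the USP family 6 were called higher, led by OTUB1 (0.91) and COPS5 (0.68) and including the proteasome-bound UCHL5 (0.37), and OTUD7B was called lower (-0.64). Of 42 E3 ligases and cullins 14 were called higher, led by NEDD4L (1.31), HERC1 (1.09) and TRIM9 (0.80), and NEDD4 was called lower (-0.52). The medians of the last 2 lists, 0.21 and 0.23, were close to those of the UBE2 and USP families. Their shares called higher, 30% and 33.3%, lay between the 24.2% of named genes and the 40.4% of the brightest named genes.

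Between M and P, limma called 0 members, in either capture or over both together. Of all probe sets tested, 0.296% were called between M and P neurons, 0.159% between M and P layers and 0.83% when the captures were joined. Over both captures 9 members (10.8%) had an unadjusted p under 0.05 with the higher level in M, 6 of them proteasome symbols and 3 UBE2 genes. With the lower level in M 3 members had it, all USP genes. The whole table had 6.16% higher and 3.78% lower. Of the 2508 brightest named genes 255 (10.2%) had it with the higher level in M and 120 with the lower, so the member share was close to that of bright genes. Of the proteasome symbols 28 of 32 had a positive M minus P difference in neurons and in layers alike, over arrays that all 32 share. Their median difference was 0.10 in neurons and 0.23 in layers, against 0.01 and 0.05 over all probe sets. Over both captures it was 0.16, against 0.03 over all probe sets, and 30 of 32 were positive, or 29 and 28 under the quantile and trimmed-mean scales. Positive differences made up 57.5% of all probe sets and 64% of the brightest named genes over both captures, and in layers 71.7% of the brightest named genes, whose median there was 0.11. Of the astrocyte markers 5 of 5 also had positive M minus P differences over both captures, with a median of 0.30, and GFAP was called higher in M (0.81, adjusted p = 0.010, limma). The neuronal marker NEFH was called higher too (0.34, adjusted p = 0.022, limma). The part of these markers in the M minus P values was not tested. Station moved with the layer type too, and on single stations, without a test, 25 of 32 were positive among neurons of station 3 (median 0.14 against 0.06 over all probe sets) and 30 of 32 among layers of station 5 (0.30 against 0.13), with 1 P neuron array and 1 M layer array in those sets.

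**Figure D4:**
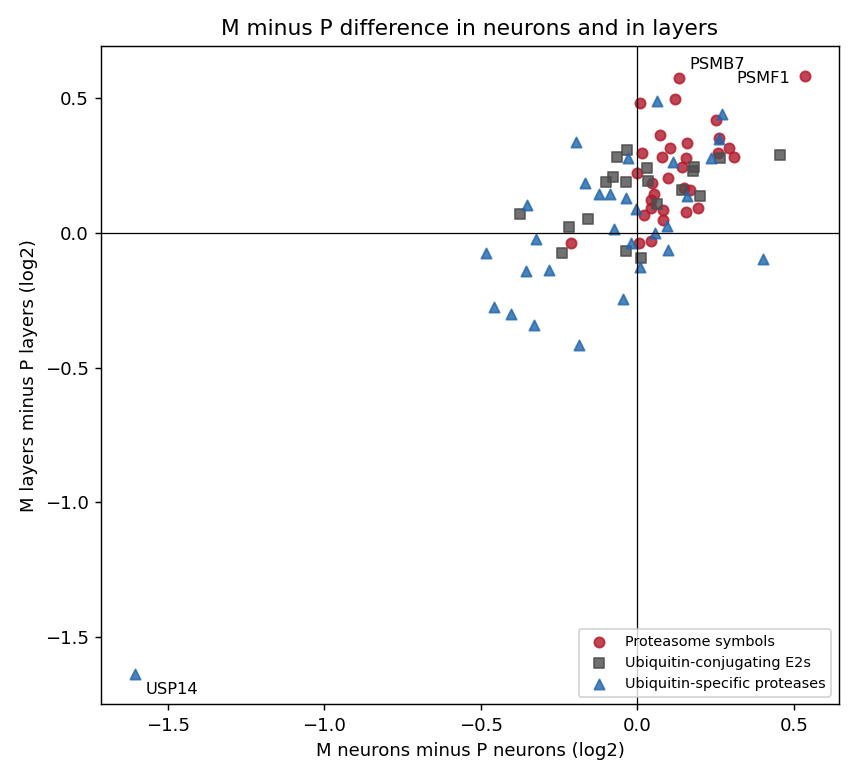
M minus P difference in neurons (horizontal axis) and in layers (vertical axis), both in log2 units, for the 83 tested members, marked by family. Of the 32 proteasome symbols 28 lie in the upper right field, and USP14 lies far from the rest at -1.61 and -1.64.

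The UBE2 genes had median differences of -0.01 in neurons and 0.19 in layers, and the USP genes -0.05 and 0.01. Over both captures, and with USP14 left aside, the 95% intervals of all members lay within -0.46 to 0.86 for the proteasome symbols, -0.56 to 0.72 for the UBE2 genes and -0.78 to 0.75 for the USP genes. The misses therefore leave room for changes of that size in single genes.

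PSMF1, the inhibitor of the core particle, came closest to a call. It had 139.6, 129 and 197 in M neurons, against 102, 87.5 and 112 in P neurons. In M layers it had 130.4, 157 and 180.3, against 80.5, 119 and 98.0 in P layers. All 6 M arrays lay above all 6 P arrays, and its difference between neurons and layers was 0.00. The difference over both captures was 0.56 ± 0.15, a 1.47-fold higher signal in M (adjusted p = 0.083, limma). It was called with quantile normalization (adjusted p = 0.021) and with trimmed-mean scaling (0.022). Its other 3 probe sets stood at 0.25, 0.34 and -0.12, the last on a mean signal of 14.2, and 0 of the 3 were called. Other proteasome members with small unadjusted p-values over both captures were PSMB7 (0.35), PSMB5 (0.34), PSME3 (0.31), PSMB10 (0.28) and PSMD6 (0.29), with adjusted p-values from 0.34 to 0.50. Among the UBE2 genes UBE2M (0.37), UBE2L3 (0.27) and UBE2F (0.20) had unadjusted p-values under 0.05, and among the USP genes USP11 (-0.34), USP2 (-0.35) and USP14.

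USP14, a deubiquitinase that binds the proteasome and trims ubiquitin from its substrates, varied more between arrays of one group than any other tested member. Its signals were 16.5, 37.6 and 33.3 in M neurons, against 79.0, 51.3 and 362 in P neurons. In M layers they were 28.4, 373 and 13.9, against 98.9, 738 and 164 in P layers. The M neurons lay below all P neurons, while M layers 2 stood above 2 of the 3 P layers, and the highest array was 53.1 times the lowest. The SD within groups was 1.40 on the log2 scale, a value that 5 of the 26383 tested probe sets exceeded. The next highest member, UBE2W, had 0.59, and the median was 0.23 over the members and 0.26 over all probe sets.

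The M minus P difference of USP14 over both captures was -1.62 ± 0.53 (adjusted p = 0.22, limma). Without M layers 2 it was called at -2.19 (adjusted p = 0.013). The next 3 probe sets of the gene in brightness shared its 3 highest arrays, with differences of -1.56, -1.37 and -1.31, and the fifth, a dim one, stood at -0.39. The neurons minus layers difference of the brightest was -0.88 ± 0.53 (adjusted p = 0.25, limma), with a 95% interval from -1.98 to 0.22.

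**Figure D5:**
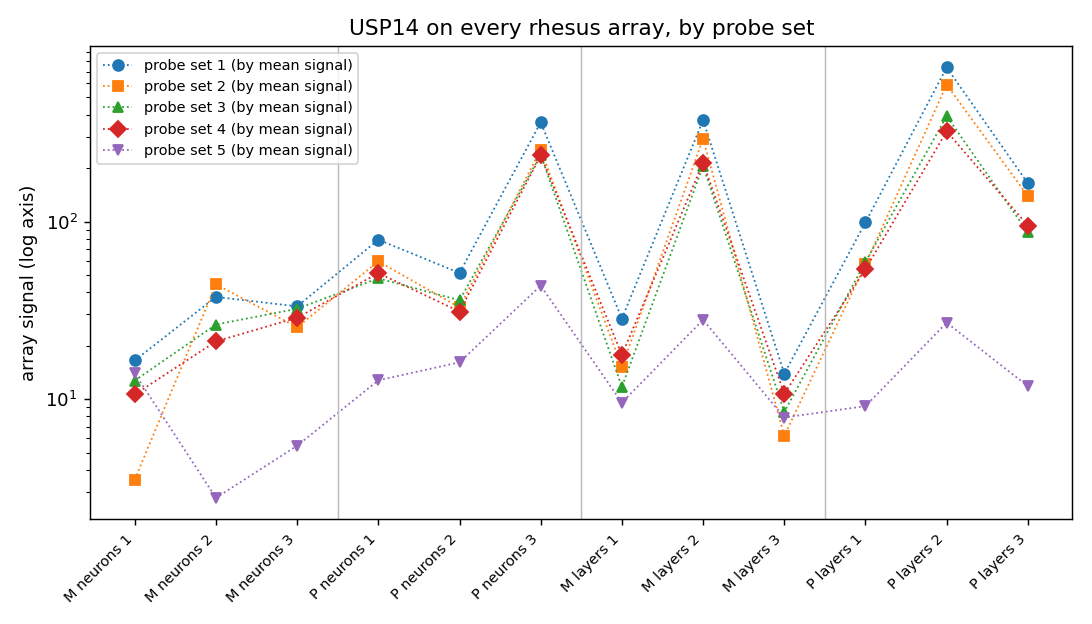
Signal of the 5 tested USP14 probe sets (vertical log axis) on the 12 rhesus arrays; dotted lines join values of 1 probe set and carry no order in time. The 4 brighter probe sets share their high arrays, P neurons 3, M layers 2 and P layers 2.

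Several probe sets of a gene did not always agree. Of the 49 members with more than 1 tested probe set, 29 had all of them on one side of 0 for neurons minus layers and 20 had both signs, and 0 had probe sets called in opposite directions. Of the 83 brightest probe sets 15 were of a design that can bind more than 1 transcript.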

How the data were processed

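RNA of 12 vervet samples was read on the Rhesus Macaque Genome Array, and 2 human arrays enter no test. The deposited intensities are linear MAS5 signals, 1 per probe set, per the submitters' processing notes. The version and scaling of MAS5 are not given in the sources used here. Station numbers (unit other) come from the deposited instrument records, per the file headers.

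A linear model with 4 group means was fitted to log2(signal + 16) with limma 3.58.1 (R 4.3.3) and an intensity trend, with 8 residual and 11.7 prior degrees of freedom. Probe sets entered at a mean signal of at least the median, 12.6. Tests were two-sided, and the number of arrays limits the precision. Simulated data with independent noise were run only for M against P neurons and for neurons against layers over both layer types. The outcome of that simulation is not reported here. Members and gene lists were chosen with earlier results of these data known. Named members are every called one, the 4 smallest p per family and comparison, the brightest and dimmest, and a panel of which 21 of 34 genes were matched.

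The labels do not say that a replicate number marks a shared animal or day, so the replicate block is an alternative only. Alternatives were 2 other pseudocounts, no filter, quantile and trimmed-mean scaling, no trend, only the groups compared, replicate and station blocks, a mean over probe sets, and each array left out. Single-station values were added after seeing the data.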

Additional observations from a re-analysis of the deposited data

How the results depend on the processing

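Members called higher and lower between neurons and layers over both layer types numbered 43 and 2, against 30 and 11 with quantile normalization and 28 and 10 with trimmed-mean scaling. The share of calls that were higher over all probe sets was 80.9%, against 51.9% and 44.9%. Reversals among the named members in that comparison included UBE2D3 (-0.156 and -0.248 under those scales), UBE2F (-0.159 and -0.179), PSMA7 (-0.227 with trimmed-mean scaling, and -0.286 in P), USP33 (-0.0054 with trimmed-mean scaling) and UBE2J1 (-0.0306 with station as a block). USP32, at 0.03 on the deposited scale, was called lower under both other scales. Further members changed sign without being named. UBE2 genes with a positive difference numbered 17, against 9 and 10 under those scales, and USP genes 25, against 18 and 16. The cause was not tested. With station as a block the 45 calls became 7, those in M 0 and those in P 2, and fitting only the groups compared left 15 calls in M. Over M against P, 1 member was called with quantile normalization, 1 with trimmed-mean scaling and 2 with the replicate block. Deviations of same-numbered arrays correlated over 0.1 in 15 of 18 pairs, from 0.0428 to 0.259, and each of the 12 arrays correlated best with its own number in every other group, a hint from the data and not the design. With that block the counts were 30 in M, 31 in P and 46 over both. The call gained over both was PSMD9 (0.406, adjusted p = 0.039), and those gained for M against P were PSMF1 (adjusted p = 0.033) and USP14 (adjusted p = 0.022). PSMC3, PSMD7, PSMD11, UBE2N, UBE2O, USP28 and USP54 were gained in M (adjusted p of 0.022 to 0.044, limma), and PSMB10, PSMC3, PSMC4, UBE2D4 and USP21 in P (0.022 to 0.044). Leaving out 1 array gave 9 to 32 calls in M, 15 to 36 in P, 38 to 50 over both, and 0 to 1 for M against P over both captures, the 1 being USP14 without M layers 2. Dim members such as USP28 and UBE2M, whose signals lie near the array medians, are the least certain.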

Other observations

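The 2 human arrays carried RNA that the titles call magnocellular layer and the source names call magnocellular neuronal cell bodies, so they were set against no group. On them 50 proteasome, 32 UBE2 and 53 USP symbols matched the same letters, among them antisense and divergent transcripts and pseudogenes such as PSMA3-AS1, UBE2E2-DT and USP32P2, and 44, 25 and 41 of these lay above the median of both arrays (11.3 and 9.78). Genes not analysed here on the rhesus arrays could be read there: the immune subunit PSMB9 had signals of 75.04 and 42.2, the activator PSME1 84.8 and 22.5, USP7 316 and 244, and USP9X 525 and 434.5. PSMB8, dim on the rhesus arrays, had 1.75 and 2.26. UBE2K, too dim to test on the rhesus arrays, had 1606 and 1547 on the human ones. UBE2G2 (11.1 and 13.8), UBE2T (2.23 and 10.9) and UBE2U (5.88 and 1.95) were dim on both platforms.

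USP14 was bright on both human arrays, at 894 and 512 on its brightest probe set, 140.2 and 122 on the second and 93.0 and 77.1 on the third. The first human array lay above the second on all 3. On the rhesus arrays the brightest probe set read 16.5 and 37.6 in M neurons 1 and 2, and 28.4 and 373 in M layers 1 and 2, so the first lay below the second in both captures. The human probe sets differ from the rhesus ones, and which rhesus array shares its RNA with which human array is not settled by the labels.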
